A study of Homo sapiens with 2 samples.

Results

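DNA replication origin and fork genes are described here, a set of 51 genes that license, fire and copy from replication origins, taken by name out of 20037 protein-coding genes on the RefSeq annotation of GRCh38. The rule lists the members by function and uses no measured value, although the set was proposed with earlier results of these data known, and all 51 matched the annotation. The measurement is CUT&Tag, in which a transposase tethered to an antibody cuts and tags DNA where the antibody's target sits, run for EWS-FLI binding. In Ewing sarcoma the driver is EWS-FLI, a fusion protein that carries the DNA-binding domain of FLI1, a member of the ETS family. Both libraries came from TC32, an established Ewing sarcoma cell line. The treatment was siEWS-FLI in 1 library and siNEG in the other, and the labels do not spell out siNEG. Both had the same kit and the same 14 and then 20 cycles of PCR, and the labels name neither the antibody nor the level of the fusion left after siEWS-FLI.

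Each eukaryotic origin is marked by the origin recognition complex, on which CDC6 and CDT1 load the ring of MCM2 to MCM7 before S phase, while geminin (GMNN) holds CDT1 back afterwards. The kinase of CDC7 and DBF4 then lets CDC45 and the GINS complex join the ring and turn it into the active helicase. Polymerase alpha with primase starts each strand, polymerases epsilon and delta extend it on the PCNA clamp that the RFC complex loads, and RPA, FEN1, LIG1, TIMELESS and TIPIN protect, join or pace the fork. Promoters of many of these genes are textbook targets of E2F factors, and ETS factors recognise DNA with a GGAA core.

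The value given for a site is its summit pileup, the number of reads extended to 200 bases that cover the highest base of a called interval, with an exact 95% Poisson interval for counting error. PCR copies are not independent molecules, so the true error is wider, and with 1 library in each group no difference has a replicate check. Fewer cells with a bound site and less signal in each cell cannot be told apart in a bulk library. The deposited lists held 16284 merged intervals with siNEG and 6370 with siEWS-FLI, and the library-wide background was 0.348 and 0.239 reads per base, a ratio of 0.687. Outside a mitochondrial window of 10000 bases, reads stood at a ratio of about 0.562 under an assumed mappable genome of 2700000000 bases. Mitochondrial reads beyond that window stayed in this ratio, so it is not the ratio of nuclear reads, which was not computed. By either ratio raw pileups are not at equal depth. A site that was not called is below the caller's threshold and not shown to be empty. The smallest pileup called was 4 reads in either library. Of 8 genes chosen as markers of the labelled tumour type, 8 had a siNEG summit within 50 kb and 4 within 1 kb. Over all protein-coding genes the shares were 71.8% and 34.1%. The exact binomial 95% interval on the 4 of 8 was 15.7% to 84.3%, which takes in the share over all genes. Among hepatocyte, blood and epithelial markers, 0 of 12 had a siNEG summit within 1 kb. Within 50 kb those other markers had one at 2, 3 and 4 of 4 genes in turn, so the wide window did not set the labelled tissue apart.

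The promoters on which the results below turn are shown here as RefSeq windows on GRCh38.p14, from 250 bases before to 50 bases after an annotated start, read 5′ to 3′ along the gene. Windows were given for 45 of the 51 members. In the first 4, capitals mark CCGGAA on either strand, the core letters of an ETS site. MCM8 (chr20:5950402-5950701, plus strand) and ORC4 (chr2:148020688-148020987, minus strand) had the most siNEG reads of any member with these letters. ORC2 (chr2:200963611-200963910, minus strand) had a siNEG summit on the letters themselves, and POLA1 (chrX:24693668-24693967, plus strand) held the longer form CCGGAAGT.
MCM8: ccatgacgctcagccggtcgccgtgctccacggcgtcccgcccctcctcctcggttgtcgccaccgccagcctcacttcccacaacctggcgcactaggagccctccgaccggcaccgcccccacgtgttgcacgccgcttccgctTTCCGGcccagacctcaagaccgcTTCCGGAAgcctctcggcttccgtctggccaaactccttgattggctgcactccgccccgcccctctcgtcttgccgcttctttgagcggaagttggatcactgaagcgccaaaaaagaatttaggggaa
ORC4: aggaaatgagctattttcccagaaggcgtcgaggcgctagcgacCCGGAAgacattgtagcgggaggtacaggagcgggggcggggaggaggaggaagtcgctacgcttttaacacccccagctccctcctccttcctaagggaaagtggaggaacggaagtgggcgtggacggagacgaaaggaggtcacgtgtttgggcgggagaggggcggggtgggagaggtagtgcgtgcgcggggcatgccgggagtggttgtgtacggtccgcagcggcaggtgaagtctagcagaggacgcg
ORC2: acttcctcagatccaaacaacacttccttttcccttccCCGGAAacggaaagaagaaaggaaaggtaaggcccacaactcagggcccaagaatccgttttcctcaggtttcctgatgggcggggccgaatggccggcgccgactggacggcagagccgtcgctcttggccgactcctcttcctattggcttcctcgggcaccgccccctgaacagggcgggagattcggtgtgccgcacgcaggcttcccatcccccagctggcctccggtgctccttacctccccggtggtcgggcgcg
POLA1: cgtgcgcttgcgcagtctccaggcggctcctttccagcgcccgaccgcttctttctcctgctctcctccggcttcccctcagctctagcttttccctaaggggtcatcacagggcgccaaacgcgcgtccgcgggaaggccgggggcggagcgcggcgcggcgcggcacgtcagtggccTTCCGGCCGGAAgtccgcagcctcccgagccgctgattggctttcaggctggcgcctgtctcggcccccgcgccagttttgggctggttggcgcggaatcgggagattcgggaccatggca

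In the next pair, capitals mark E2F-like letters, TTTGGCGC in CDC6 (chr17:40287629-40287928, plus strand) and TTTCCCGC overlapping TTCCCGCC in LIG1 (chr19:48170295-48170594, minus strand). Both windows held a summit in each library and neither held CCGGAA. ORC6 (chr16:46689409-46689708, plus strand) is shown because its pileup differed least between the libraries among sites called in both with 20 or more siNEG reads, and capitals there mark NRF1-like letters, a run that is its own reverse complement.
CDC6: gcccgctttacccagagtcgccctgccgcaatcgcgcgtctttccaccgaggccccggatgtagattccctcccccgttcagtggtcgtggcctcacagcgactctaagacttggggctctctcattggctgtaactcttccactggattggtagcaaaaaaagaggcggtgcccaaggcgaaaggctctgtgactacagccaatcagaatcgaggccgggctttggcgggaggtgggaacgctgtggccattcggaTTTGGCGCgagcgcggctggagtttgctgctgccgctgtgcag
LIG1: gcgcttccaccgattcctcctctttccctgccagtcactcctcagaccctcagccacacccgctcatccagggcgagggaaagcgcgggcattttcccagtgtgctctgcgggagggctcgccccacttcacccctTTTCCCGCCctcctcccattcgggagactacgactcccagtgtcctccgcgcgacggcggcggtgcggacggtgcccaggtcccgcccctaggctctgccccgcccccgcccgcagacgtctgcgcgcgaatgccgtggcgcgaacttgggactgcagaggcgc
ORC6: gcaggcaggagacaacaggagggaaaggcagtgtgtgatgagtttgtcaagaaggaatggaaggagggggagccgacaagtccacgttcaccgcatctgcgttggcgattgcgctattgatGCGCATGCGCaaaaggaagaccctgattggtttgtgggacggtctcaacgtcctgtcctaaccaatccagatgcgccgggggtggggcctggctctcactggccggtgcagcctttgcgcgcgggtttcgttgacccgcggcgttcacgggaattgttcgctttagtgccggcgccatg

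More replication genes had a called site at their end with siNEG than with siEWS-FLI. A siNEG summit lay within 1 kb of either gene end at 36 of 51 members (70.6%, exact binomial 95% interval 56.2 to 82.5), where 34.1% of all protein-coding genes had one. With siEWS-FLI the count was 13 (25.5%, 14.3 to 39.6), against 12.3% of all genes. Of the 36 members, 12 had a summit in both libraries (33.3%, 18.6 to 51), and 32.7% of all genes with a siNEG summit did, so the share kept at replication genes stood near that of genes in general. Another 40 replication genes, listed by function outside the 51, had a siNEG summit in 27 cases (67.5%) and a siEWS-FLI summit in 8 (20%). The counts depend on how many intervals were called. With the siNEG list cut to the length of the siEWS-FLI list, 20 of 51 members had a siNEG summit within 1 kb. The share over all genes was then 20.4%, below that of the members. At a −log10 q of 5 or more the siEWS-FLI count was 6 of 51, and its share over all genes was not computed. The share kept at that cutoff was 17.9% of 28 members, against 23.1% of all genes with a siNEG summit. No test was made of these shares, because genes are not replicates of a condition.

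**Figure D1:**
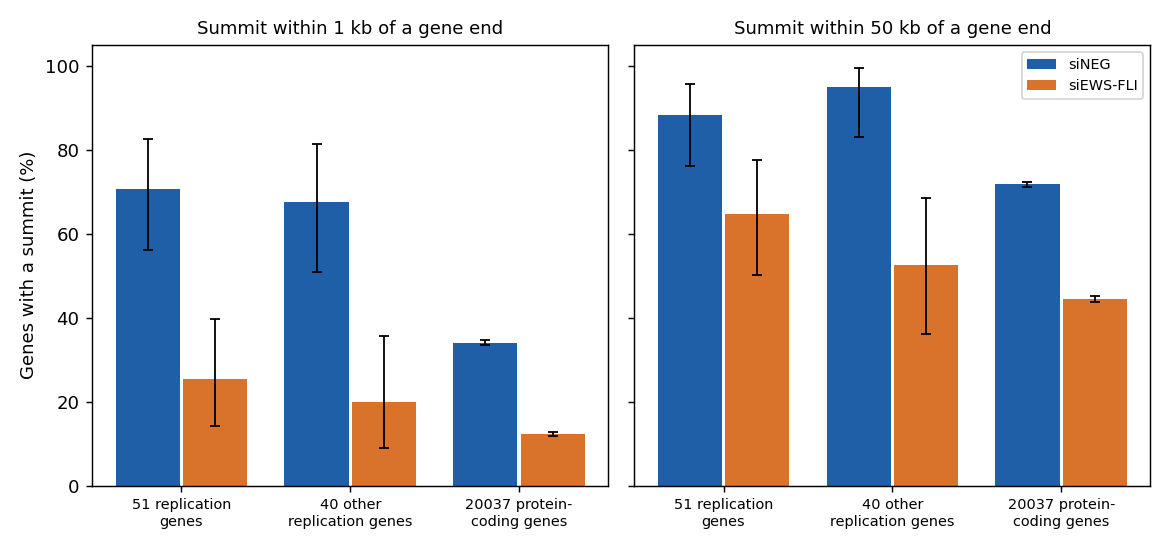
Share of genes with a called summit (vertical axis, percent) within 1 kb (left) or 50 kb (right) of either gene end, for siNEG (blue) and siEWS-FLI (orange), with exact binomial 95% intervals that cover the number of genes only. At 1 kb the 51 replication genes stood at 70.6% and 25.5%, and all protein-coding genes at 34.1% and 12.3%.

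The sites were weak to moderate in height. Over the 36 members the siNEG pileup ran from 4 reads at MCM6 to 63 at ORC4 with a median of 13.5, and the median over all genes with such a site was 12. The 13 siEWS-FLI pileups ran from 4 at MCM2 to 16 at ORC4 and MCM7, with a median of 7 against 8 over all genes. In 14 members the siNEG summit had fewer than 10 reads, and in 4 (ORC4, MCM8, LIG1 and FEN1) it had 50 or more.

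**Figure D2:**
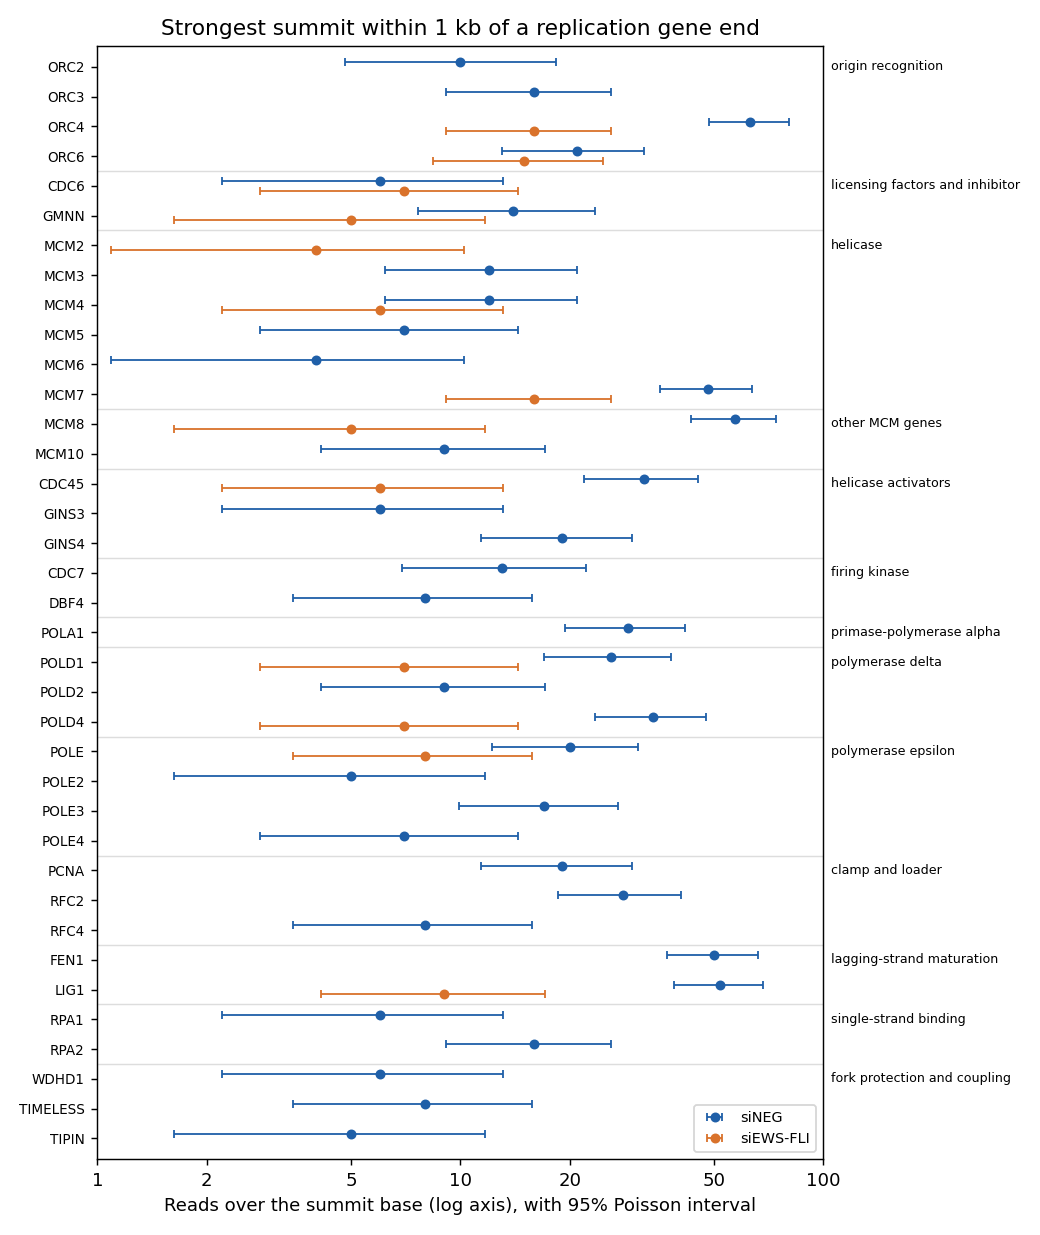
Reads over the summit base (horizontal log axis) for each replication gene with a summit within 1 kb of an end, siNEG in blue and siEWS-FLI in orange, with 95% Poisson intervals, grouped by role. A gene with no orange point had no siEWS-FLI call, and MCM2 alone had an orange point without a blue one.

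Among the origin recognition genes, 4 of 6 had a siNEG site at their end and 2 a siEWS-FLI site. ORC4 had the highest siNEG pileup of the set, 63 reads (48.4 to 80.6) at chr2:148020486-148021112, and 16 (9.15 to 26) with siEWS-FLI. The ratio of siEWS-FLI to siNEG reads was 0.254 (0.137 to 0.445, exact interval for 2 counts). ORC6, a further subunit gene, had 21 siNEG reads (13 to 32.1) and 15 siEWS-FLI reads (8.4 to 24.7) at chr16:46689318-46689592. The intervals of the ORC6 counts overlap and its ratio of 0.714 (0.343 to 1.45) includes 1, whereas the counts at ORC4 are separated. Both comparisons use raw reads at unequal depth, and the part that depth plays in them was not tested. ORC3 had 16 siNEG reads and ORC2 had 10, with no siEWS-FLI call at either end. ORC1 had no site within 1 kb of its outermost ends, but 15 siNEG reads (8.4 to 24.7) lay upstream of a listed start inside the annotated gene span, at an offset of -174 bases. ORC5 had no summit within 50 kb in either library.

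The licensing factors carried small sites that were called in both libraries where they were called at all. CDC6, the loader that recruits the helicase, had 6 siNEG reads (2.2 to 13.1) and 7 siEWS-FLI reads (2.81 to 14.4) at chr17:40287630-40287955, the sole shared member site with more siEWS-FLI than siNEG reads. Its ratio of 1.17 had an interval of 0.336 to 4.2. GMNN, which encodes the inhibitor of CDT1, had 14 (7.65 to 23.5) and 5 reads (1.62 to 11.7). CDT1 itself, the partner of CDC6, had no summit within 1 kb, and its nearest siNEG summit was 2.87 kb from a gene end with 8 reads.

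Of the 6 helicase genes, 5 had a siNEG site and 3 a siEWS-FLI site. MCM7 had 48 siNEG reads (35.4 to 63.6) and 16 siEWS-FLI reads (9.15 to 26) at chr7:100100567-100101025, a ratio of 0.333 (0.177 to 0.597). That summit lay 660 bases from the gene end, and another siNEG summit, 212 bases from it, had 45 reads. The other helicase subunits were low. MCM3 and MCM4 had 12 siNEG reads each, MCM5 had 7 and MCM6 had 4. MCM4 also had 6 siEWS-FLI reads (2.2 to 13.1), which overlapped a second, weaker siNEG interval at its end and not the strongest. MCM2 had 4 siEWS-FLI reads (1.09 to 10.2) 365 bases from its end and no siNEG summit nearer than 7.43 kb. Its siEWS-FLI count is the lowest that was called.

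MCM8, whose product works with that of MCM9 in recombination repair, had the lowest ratio among the 11 members' shared gene-end sites. It had 57 reads (43.2 to 73.9) with siNEG at chr20:5950354-5950920 and 5 (1.62 to 11.7) with siEWS-FLI, a ratio of 0.0877 (0.0274 to 0.217). MCM10, a helicase activator, had 9 siNEG reads and MCM9 had no summit within 1 kb. The helicase activators proper had siNEG sites at 3 of 5 genes. CDC45 had 32 reads (21.9 to 45.2) and 6 (2.2 to 13.1) with siEWS-FLI, a ratio of 0.188 (0.0641 to 0.455). GINS4 had 19 and GINS3 had 6 siNEG reads with no siEWS-FLI call, and GINS2 had no summit within 50 kb. CDC7 and DBF4, the kinase that fires origins and its activator, had 13 and 8 siNEG reads and no siEWS-FLI site within 1 kb.

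Of the 12 polymerase genes, 8 had a siNEG site at an outer end. In the primase and polymerase alpha complex 1 of 4 genes had a gene-end site, the catalytic subunit POLA1 with 29 siNEG reads (19.4 to 41.6) at chrX:24693574-24694022 and no siEWS-FLI summit. PRIM2, a primase subunit, had 7 siNEG reads 108 bases downstream of a listed start that is not an outer end. In polymerase delta, the main lagging-strand enzyme, 3 of 4 genes had a siNEG site and 2 kept a call. POLD4 had 34 reads (23.5 to 47.5) and 7 (2.81 to 14.4), and the catalytic subunit POLD1 had 26 (17 to 38.1) and 7 (2.81 to 14.4). The ratios were 0.206 at POLD4 and 0.269 at POLD1. All 4 polymerase epsilon genes, of the leading-strand enzyme, had a siNEG site, at 20 reads for POLE (12.2 to 30.9), 17 for POLE3, 7 for POLE4 and 5 for POLE2. POLE, the catalytic subunit, alone kept a call, with 8 siEWS-FLI reads (3.45 to 15.8).

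At the clamp and its loader 3 of 6 genes had a siNEG site at an outer end and 0 had a siEWS-FLI site. RFC2 had 28 reads (18.6 to 40.5) and RFC4 had 8, both loader subunits, and RFC1 and RFC3 had no summit within 50 kb of an end. PCNA had 19 siNEG reads (11.4 to 29.7) at its outer end. A second listed start inside the PCNA span had 30 siNEG (20.2 to 42.8) and 5 siEWS-FLI reads (1.62 to 11.7), so PCNA had a call in both libraries at that start.

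Both lagging-strand maturation genes had siNEG sites among the 4 highest of the set, and 1 of the 2 had a siEWS-FLI call. FEN1, the flap nuclease, had 50 siNEG reads (37.1 to 65.9) at chr11:61792483-61793057 and no siEWS-FLI call. At the siNEG local background of 1.96 reads, a siEWS-FLI pileup of up to 9 would have stayed uncalled there. At the library-wide siEWS-FLI background the limit was 3. LIG1, the ligase that seals Okazaki fragments, had 52 (38.8 to 68.2) and 9 (4.12 to 17.1) at chr19:48170172-48170667, a ratio of 0.173 (0.075 to 0.354). The uncalled limit is a cautious one, since LIG1 and MCM8 were called at 9 and 5 reads where the siNEG background would have allowed up to 10 and 9 to stay uncalled. The siEWS-FLI local background was 0.46 reads at LIG1 and 0.26 at MCM8, below the siNEG values of 2.46 and 2.16. That background is not known at FEN1, so how its siEWS-FLI pileup stood beside that of LIG1 was not settled.

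Of the single-strand binding genes 2 of 3 had a siNEG site at an end, as did all 3 fork protection and coupling genes, and none of these 6 genes had a siEWS-FLI site there. RPA2 had 16 reads (9.15 to 26) and RPA1 had 6. TIMELESS had 8, WDHD1, which links the helicase to polymerase alpha, had 6 and TIPIN had 5. The 15 members without a siNEG summit within 1 kb of an end were MCM2, MCM9, ORC1, ORC5, CDT1, GINS1, GINS2, POLA2, PRIM1, PRIM2, POLD3, RFC1, RFC3, RFC5 and RPA3. By each gene's nearest siNEG summit, those closest to the edge of that window were POLD2 at 652 bases with 9 reads and ORC4 at 674 bases with 63 inside it, and CDT1 at 2.87 kb with 8 reads and RPA3 at 4.18 kb with 66 outside it. The strongest MCM4 site lay nearer the edge, at 890 bases, but MCM4 had a second summit at 222. Members with 20 or more siNEG reads had a siEWS-FLI call in 9 of 12 cases (75%), and members below 20 in 3 of 24 (12.5%). Over all genes the same shares were 66.4% and 16.4%, so calls followed siNEG height in the set and in the genome alike.

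At the 11 members whose strongest gene-end interval overlapped a siEWS-FLI interval, the ratio of reads had a median of 0.269, from 0.0877 at MCM8 to 1.17 at CDC6. Over all genes 30.8% of strongest gene-end sites were overlapped, against 30.6% of the members' sites, and the median ratio over 1630 distinct shared sites was also 0.269. Of the 11, 9 stood below the ratio of 0.562 for reads outside the mitochondrial window, and at 5 the upper bound of the ratio did too. That ratio still holds some mitochondrial reads, so these counts do not compare the sites with nuclear depth. The sites were picked by their siNEG values and had to be called with siEWS-FLI, and the part that depth and this choice play in the ratio was not tested. At 4 to 9 siNEG reads the median ratio was 0.8 over all such sites, and CDC6, the 1 member site, had 1.17. At 10 to 19 reads it was 0.474 over all, with GMNN the 1 member site at 0.357. At 20 to 49 siNEG reads the median ratio was 0.301 over 6 member sites and 0.261 over all such sites. At 50 or more it was 0.173 over 3 and 0.138 over all.

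**Figure D3:**
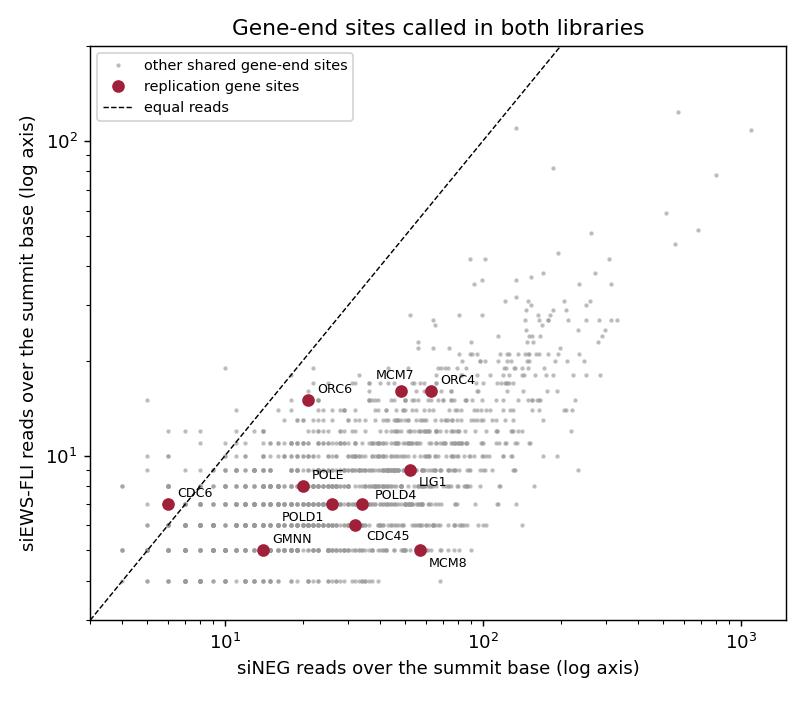
siEWS-FLI reads (vertical log axis) against siNEG reads (horizontal log axis) over the summit base at gene-end sites called in both libraries, with 11 replication gene sites in red among all others in grey and the line of equal reads dashed. CDC6 is the one labelled gene above the line, and the red points lie within the grey cloud.

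The sites sat at transcription starts. For the 32 members with a siNEG gene-end site and a listed start, all 32 summits lay within 1 kb of a start and 30 within 250 bases (93.8%), against 91.5% and 73.7% of all genes. The median offset was -114 bases, that is upstream, with 24 summits upstream and 8 downstream, and the farthest were -297 at PCNA and 314 at TIMELESS. Measured from listed starts alone, 34 of 45 members had a siNEG summit within 1 kb (75.6%), against 37% of all genes with a listed start. ORC1 and PRIM2 were the 2 added by this count. With siEWS-FLI, 13 of the 45 members had one, a higher share than the 13.6% of all genes with a listed start.

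**Figure D4:**
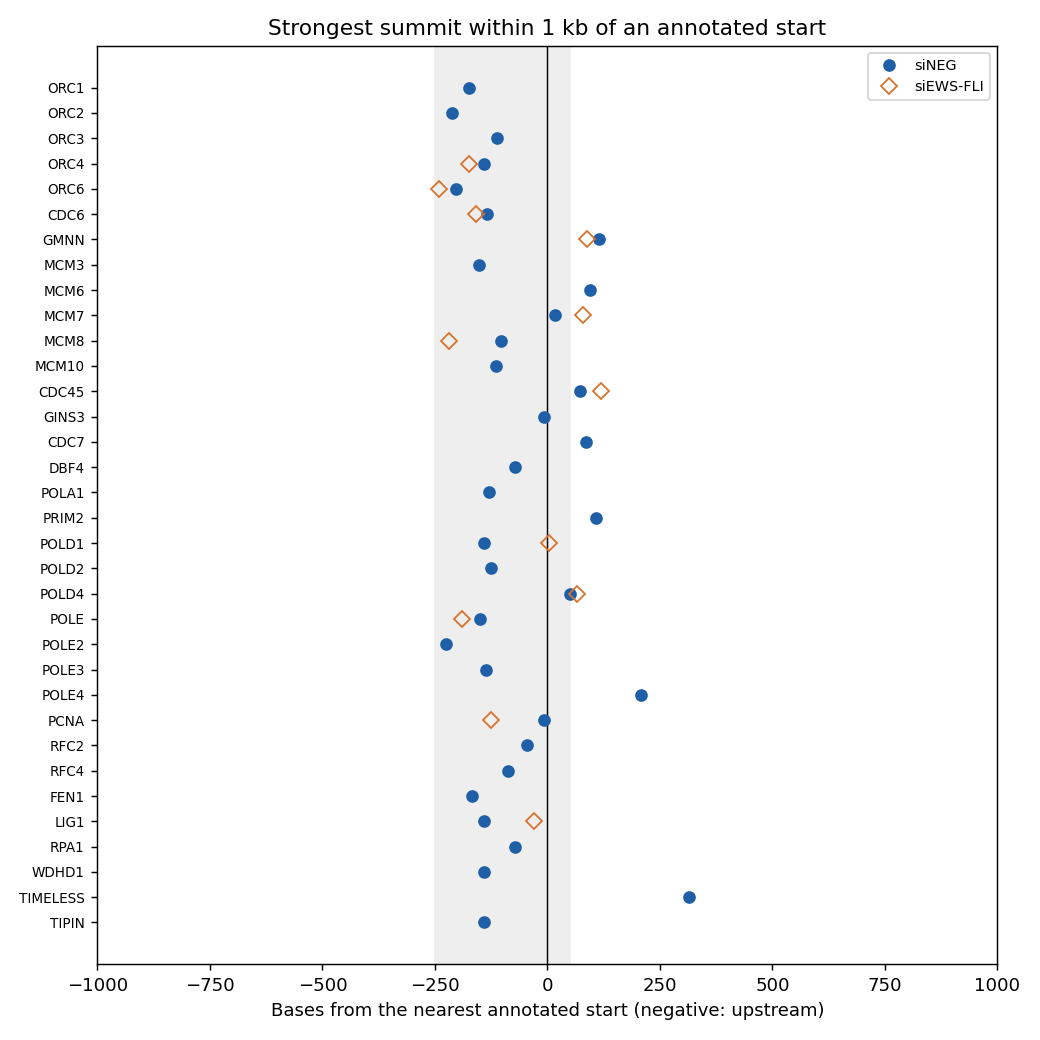
Distance of the strongest summit from the nearest annotated start (horizontal axis, bases, upstream negative) for the 34 replication genes with a siNEG summit within 1 kb of one, siNEG as filled circles and siEWS-FLI as open diamonds, with the window from 250 bases before to 50 after a start in grey. No summit lies farther than 314 bases from its start.

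Many of these sites lay near an end of a second gene. Another protein-coding gene had an end within 1 kb of the siNEG summit at 18 of 36 members, 50% against 35.6% of all genes with a site, whether that end was its start or not, and at 12 of the 36 that gene's end was the closer (33.3% against 17.1%). Such pairs were TRMT6 with MCM8, MBD5 with ORC4, AP4M1 with MCM7, TMEM258 with FEN1, RARS2 with ORC3 and CDS2 with PCNA. Of the 12 members called in both libraries 9 had such a neighbour (75%, against 45.1% of all genes called in both), and of the 24 called with siNEG alone 9 had one (37.5% against 31.1%). CDC6, GMNN and POLD4 were the 3 called in both without one. The data do not say to which gene of a pair a site belongs.

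E2F-like letters were common in the promoters of replication genes. At least 1 of TTTCCCGC, TTTGGCGC, TTTCGCGC and TTCCCGCC, on either strand, was present in a listed window of 25 of 45 members (55.6%) and of 8.28% of all 15843 genes with a window. Of these, TTTCCCGC and TTCCCGCC can overlap. CCGGAA was present in 19 of 45 members (42.2%) against 26.6% of all genes, and CCGGAAGT, which contains it, in 3 (6.67%) against 6.97%. The CCAAT box letters were in 27 (60%) against 42.1%, and the NRF1-like letters in 2 (4.44%, ORC6 and CDT1) against 1.99%. A run of 3 GGAA repeats, the form that EWS-FLI binds at microsatellites, was in 0 of 45 members and 0.101% of all genes. Over 35116 windows of the table as a whole, CCGGAA was in 17.2% and TTTGGCGC in 0.652%.

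CCGGAA was in 45.7% of all genes with a siNEG summit within 1 kb of a listed start and in 15.4% of those without. Among the members it was in 15 of 34 (44.1%) and in 4 of 11 (36.4%). Split by gene ends in place of listed starts, it was in 13 of 32 members with a site (40.6%) and 6 of 13 without (46.2%), so the order of the members' shares turned on where ORC1 and PRIM2 were counted. E2F-like letters were in 18 of the 34 (52.9%) and 7 of the 11 (63.6%). Of the 11 members called in both libraries at gene ends that had a window, 3 held CCGGAA (27.3%, MCM8, ORC4 and POLE), against 50.4% of all genes called in both, and 6 held E2F-like letters (54.5% against 11.6%). These counts are small and describe letters, not binding by a factor.

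In the 12 member windows that held both a siNEG summit and CCGGAA, the summit lay a median of 62 bases from the centre of the nearest match. The closest were MCM8 and ORC2, at 1.5 bases, and the summit of MCM8 is base 148 of the window shown above, counted from 1 at its 5′ end. That of ORC2 is base 40, with 10 siNEG reads against 57 at MCM8. At ORC3 the distance was 16.5 bases and at ORC1 19.5, while at RPA1 it was 150.5. FEN1, with 50 siNEG reads, held neither CCGGAA nor the E2F-like letters in its window, and ORC4, with 63, had its match 63.5 bases away. Sites on top of CCGGAA were thus both high and low, and high sites were found with no CCGGAA in the window. The FEN1 interval extends beyond its window on both sides, and letters outside the windows were not read.

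Within 50 kb of either end the windows took in many sites of neighbours. A siNEG summit lay there at 45 of 51 members (88.2%, 76.1 to 95.6), against 71.8% of all genes, and a siEWS-FLI summit at 33 (64.7%, 50.1 to 77.6), against 44.5%. All 33 also had a siNEG summit, 73.3% of the 45 (58.1 to 85.4), and 55.9% of all genes with a siNEG summit did so. The median number of siNEG summits in the window was 2 over the members and 1 over all genes. What that difference adds to the share kept was not tested. The 6 members with no summit this near an outer end in either library were ORC5, GINS2, PRIM2, POLD3, RFC1 and RFC3. When a siNEG site in the window had to overlap the siEWS-FLI interval, 26 of 45 members did (57.8% against 41.6% of all genes). Where a summit could count for 1 gene only, the nearest, 16 of 36 members kept a call (44.4% against 35.8%).

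The strongest siNEG site of the window, taken as the one with the highest −log10 q, was within 1 kb of the member's own end at 19 of the 45 and farther away at 26, of which 22 were closest to another gene. The site was overlapped by a siEWS-FLI interval at 17 members (37.8%), where 35.2% of all genes with a siNEG summit had that. Of those 17 sites, 6 were at the member's own end and are given above. The highest of these pileups belonged to POLD1, whose site at an end of NR1H2 7.61 kb away had 149 siNEG reads (126 to 175) and 15 siEWS-FLI reads (8.4 to 24.7). PCNA had 96 (77.8 to 117) and 6 (2.2 to 13.1) at TMEM230, 1.8 kb away, the lowest ratio of the 17 at 0.0625 (0.0224 to 0.141). In both, the siNEG count was several times the siEWS-FLI count and the intervals were far apart. The window of ORC2 held 80 siNEG (63.4 to 99.6) and 11 siEWS-FLI reads (5.49 to 19.7) at NIF3L1. That of POLD2 held 72 siNEG (56.3 to 90.7) and 8 siEWS-FLI reads (3.45 to 15.8) at POLM, and that of RPA3, the smallest RPA subunit, held 66 siNEG (51 to 84) and 12 siEWS-FLI reads (6.2 to 21) at UMAD1. Intervals were again separate at all 3, in raw reads at unequal depth. GINS4 was next, with 62 siNEG (47.5 to 79.5) and 8 siEWS-FLI reads (3.45 to 15.8) at GOLGA7, and ORC1 had 49 siNEG (36.3 to 64.8) and 5 siEWS-FLI reads (1.62 to 11.7) at CC2D1B. Lower sites were those of WDHD1, with 38 siNEG (26.9 to 52.2) and 8 siEWS-FLI reads (3.45 to 15.8) at MAPK1IP1L, and POLE2, with 26 siNEG (17 to 38.1) and 9 siEWS-FLI reads (4.12 to 17.1) at DNAAF2, where the counts came closest. These 9 sites were all at the end of a neighbouring gene.

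The remaining pair of the 11 distal shared sites lay outside any gene end, and their ratios were above those of the 9 at neighbours' ends. An intergenic site 25.7 kb from POLE and nearest to LRCOL1 had 39 siNEG reads (27.7 to 53.3) and 19 siEWS-FLI reads (11.4 to 29.7). Its ratio was 0.487 (0.266 to 0.864). RFC4 had 27 (17.8 to 39.3) and 13 (6.92 to 22.2) at one 43.7 kb away nearest to KNG1, a ratio of 0.481 (0.228 to 0.966). Over the 17 sites the ratio ran from 0.0625 to 0.714 with a median of 0.188. LIG1 had its strongest window site inside the gene, 17.5 kb from an end, with 53 siNEG reads and no overlapping siEWS-FLI interval.

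**Figure D5:**
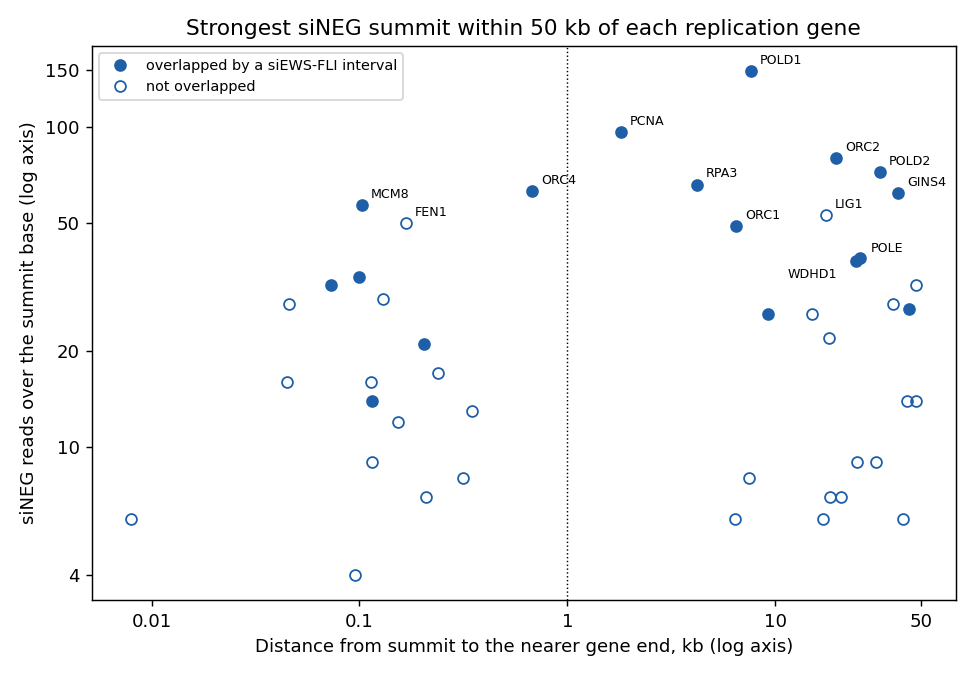
Siting of the strongest siNEG summit within 50 kb of each of 45 replication genes, by distance to the nearer gene end (horizontal log axis, kb, dotted line at 1 kb) and siNEG reads over the summit base (vertical log axis), filled where a siEWS-FLI interval overlapped it. The 5 highest points, POLD1, PCNA, ORC2, POLD2 and RPA3, are filled and lie beyond 1 kb, at ends of neighbouring genes.

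The 40 other replication genes gave similar values at their ends. The highest were DNMT1, the maintenance methyltransferase, with 40 siNEG (28.6 to 54.5) and 5 siEWS-FLI reads, the histone chaperone gene ASF1B with 39 (27.7 to 53.3) and 11, and FBXO5 and CHAF1A with 37 each and 11 and 7. TOP1 had 29 and 8, CLSPN, which encodes the fork mediator claspin, 28 and 11, and DTL 19 and 5. CDK2, the S-phase kinase, had a siEWS-FLI summit alone, with 9 reads (4.12 to 17.1). The other 20 with a siNEG site had none with siEWS-FLI, so 7 of 27 kept a call (25.9%, 11.1 to 46.3), an interval that takes in the 33.3% of the 51 members.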

How the data were processed

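Per the submitters' processing notes, the tools were MACS2 2.2.9.1, Bowtie2 2.4.5 and Trim Galore 0.6.6 with the hg38 build, and no role is stated for any. How duplicates were handled, and whether a control was used, is not given in the sources used here. The peaks of each library were deposited as a list of their own. The deposited fold enrichment is a ratio over local background. The deposited −log10 p-value and −log10 q-value belong to each summit, and the deposited score was not used. Lines sharing an interval were merged, keeping the highest −log10 q, on chromosomes 1 to 22, X and Y.

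The pileup was solved as the whole number that gives both the deposited fold, (pileup + 1)/(background + 1), and the Poisson p-value, within 0.001 in log10 p (in proportion above 10). This held for 100% of lines and was tested on simulated data. Gene ends came from RefSeq (GRCh38.p14, the coordinates of hg38), and starts and promoter windows from the RefSeq promoter table, in which 6 members had no entry. The gene table marks no exons, so exons and introns were not told apart. Summits within 50 kb were counted from either gene end, as the definition of the set has it. The written plan also counted summits anywhere inside a gene. That departure from the plan was made after the data were seen, and the planned count is in the closing section.

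With 1 library per group no test was run. Members, roles and lists were chosen with earlier results of these data known. Values were set to be given for each member with a siEWS-FLI summit at its end, the 10 highest siNEG gene-end sites, each strongest 50 kb site that was shared, and members without a siNEG summit. Python 3.11.15 and scipy 1.17.1 were used.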

Additional observations from a re-analysis of the deposited data

Results flagged for a closer look

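The lists also held intervals on sequences that the comparisons left out, which drew attention as signal outside the main measurement. There were 125 lines on sequences other than chromosomes 1 to 22, X and Y with siNEG and 94 with siEWS-FLI, 29 of them mitochondrial in each library. None of the 51 replication genes lies on those sequences.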

How the results depend on the processing

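The count of members with a siNEG summit within 1 kb ran from 28 to 39 over the settings tried other than equal list lengths, under which it was 20. Within 50 kb it ran from 36 to 48, and was 33 with equal list lengths. Over all genes the shares within 1 kb were 20.4% with equal list lengths, 25.1% at a −log10 q of at least 5 and 30% for intervals wider than 200 bases. Within 50 kb they ran from 46.8% for nearest genes only to 82.4% for a window of 100 kb. Equal list lengths raised the shares kept to 50% within 1 kb (all genes 47.4%) and 84.8% within 50 kb (all genes 67.7%). Windows of 5 kb and listed starts gave 43.6% and 35.3% within 1 kb, and the other settings left the shares equal or lower. Over all genes listed starts gave 33.6%, and the share for the 5 kb window was not computed. Under a stricter −log10 q minimum of 5, 6 members had a siEWS-FLI summit within 1 kb and 16 within 50 kb, and the shares kept were 17.9% and 41% (all genes 23.1% and 32.5%). With intervals wider than 200 bases only, 8 and 20 members had one and the shares kept were 24.2% and 45.5% (all genes 24.7% and 35.7%). Counting a summit for its nearest gene and no other, 16 had one within 50 kb and 44.4% was kept (all genes 35.8%). With overlap required, 57.8% was kept within 50 kb (all genes 41.6%). The shares of all genes with a siEWS-FLI summit were not computed under these settings. A reciprocal overlap of 50% left 19.4% kept within 1 kb. Taking the strongest site of each gene, 7 of 36 members and 1020 of 6836 genes had such an overlap. By construction, these stricter settings let fewer intervals or pairs count. The count as first planned, with summits anywhere inside a gene included, gave 47 members with siNEG within 50 kb, 33 with siEWS-FLI and 70.2% kept (all genes 57%), and the use of gene ends alone in its place was chosen after seeing the data. The medians of siNEG pileup (13.5 to 18) and of the pileup ratio (0.188 to 0.269) moved by less than their spread. The split of promoter letters by listed starts was also chosen after seeing the data, and it moved the share with CCGGAA from 40.6% to 44.1% in members with a site and from 46.2% to 36.4% in those without. No paired analysis was possible because each group had 1 library. Depth limits what was called: a siEWS-FLI pileup of 3 reads or fewer stayed below the threshold at the library-wide background.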
